A study of Mus musculus with 12 samples.

Results

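Expression of 10 genes for antimicrobial proteins and interleukin-1 (IL-1) family cytokines was examined in tail skin papillomas of mice with and without epidermal Fos. The genes were chosen by name, with earlier results of these data known. They were Slpi, Defb4, S100a8, S100a9, Lcn2, Il1f9, Il1f6, Il1a, Il1b and Il1rn. Each had 1 probe among the 37632 probes of the array by its platform symbol, and 9 of the 10 had values. The S100a9 probe had no value on any of the 12 arrays, so that gene is not described further. Il1f9 and Il1f6 are the older symbols of the genes for IL-36 gamma and IL-36 alpha.

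The 6 mice shared a transgene with active Sos, which drives Ras signalling, behind the keratin5 promoter of basal keratinocytes. In 3 mice (c-Fos-floxed, specimens 2, 3 and 5) both Fos alleles were floxed and functional, and in 3 mice (c-Fos-deficient, specimens 6, 8 and 9) Fos was deleted on both alleles in the epidermis only. Other cells of a papilloma therefore kept Fos. The background was the same mixed one in both groups (129/Ola-C57BL/6-CBA-LVA-B6C3F1), and no ages are given. RNA of each papilloma was hybridised on 2 arrays with exchanged dyes against Universal Mouse Reference RNA, a pool of mouse cell lines that include alveolar macrophages, T and B lymphocytes, fibroblasts and epidermal cells. The values are log2 ratios of papilloma over reference, averaged over the 2 arrays, and the animal is the replicate (n = 3 per group).

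Skin epithelium is itself an immune organ. Keratinocytes secrete defensins, S100 proteins, lipocalin and protease inhibitors that act on microbes, and they store or release IL-1 family cytokines that alert neighbouring cells when tissue is damaged. The 9 genes fall into these roles: a protease inhibitor with antimicrobial activity (Slpi), a beta-defensin (Defb4), a subunit of calprotectin (S100a8), a siderophore-binding lipocalin (Lcn2), agonists of the IL-36 receptor (Il1f9, Il1f6), agonists of the IL-1 receptor (Il1a, Il1b) and the IL-1 receptor antagonist (Il1rn). S100a8 and Lcn2 are also abundant in neutrophils.

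Facts of the whole series bear on every value here. An array held values for 20811 to 26490 probes, array medians lay between -0.16 and -0.01, and all 66 pairs of arrays correlated positively (r from 0.705 to 0.963). The ratios thus already ran the same way in both dye orientations, with papilloma over reference the likely direction. The log base is not stated. Folds below hold for base 2. Keratinocyte genes marked the tissue, with specimen means of the 20 complete genes of that list between 4.19 and 4.66, and Krt14 and Krt5 averaging 5.34 and 3.58 over the Fos-floxed specimens (ranges 5.21 to 5.45 and 3.51 to 3.71). Fos itself averaged -1.14 (SD 0.52, n = 3) with floxed alleles and -4.11 (SD 0.28, n = 3) after deletion, every Fos-deficient specimen lying below every Fos-floxed one. The position of its probe relative to the deletion is unknown here. Signals and backgrounds of the spots were not analysed here, and the number of arrays limits the precision.

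In the 3 Fos-deficient papillomas Slpi, Defb4 and Il1f9 lay below every Fos-floxed papilloma, by 6.32-, 5.47- and 2.03-fold in the mean. Lcn2 lay above every Fos-floxed papilloma, by 3.27-fold. S100a8 was 1.39-fold higher in the mean with overlapping groups, and Il1f6, Il1a, Il1b and Il1rn differed by 1.04- to 1.32-fold. None of these differences passed the test across all features. The test was limma with Benjamini-Hochberg adjustment over 18861 features. At an adjusted p of 0.05 it called 0 features (0.0%), and adjusted p for the 9 genes ranged from 0.212 to 0.864. Without adjustment, 5 of the 9 had p under 0.05, 3 on the lower side and 2 on the higher side, against 11.9% of all features, 7.31% lower and 4.55% higher. With quantile normalization the lower side held 46.3% of all such features in place of 61.6%. The groups did not overlap for 3 of the 9 genes on the lower side and 1 on the higher side, against 9.09% and 10.9% of the 16209 features with a value in all specimens. The genes were picked with earlier results of these data known, so these counts are a description. Of the 9 differences 6 lay below 0, with a median of -0.31, while 44.9% of all features lay below 0, with a median of 0.03. In papilloma tissue, fewer cells of a type and less RNA per cell cannot be told apart.

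**Figure D1:**
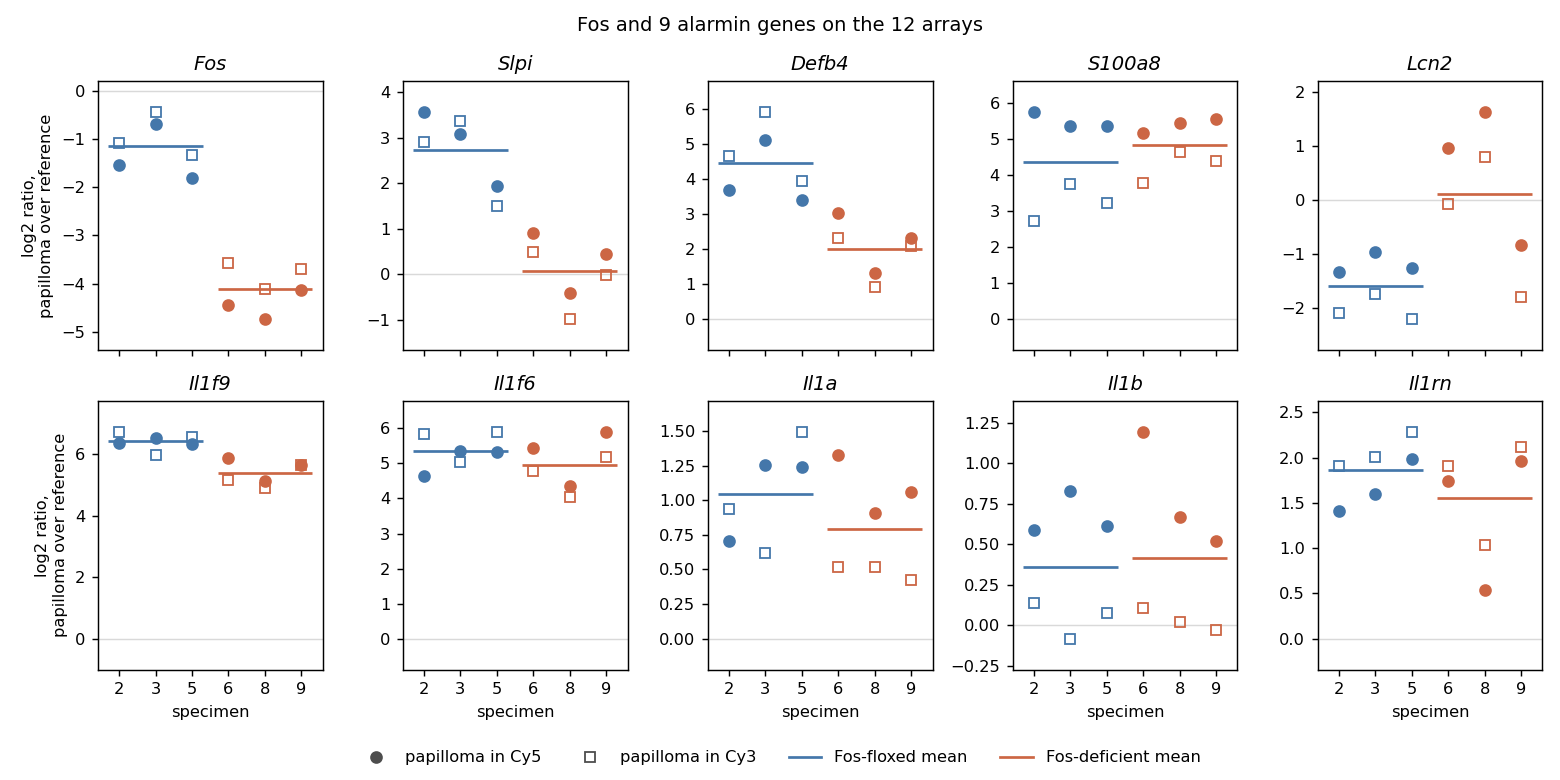
Log2 ratio of papilloma over reference (y axis, a scale for each gene) for Fos and the 9 measured genes in specimens 2, 3 and 5 (Fos-floxed) and 6, 8 and 9 (Fos-deficient). Filled circles are arrays with the papilloma in Cy5, open squares those with the papilloma in Cy3, and lines are group means. For Slpi, Defb4 and Il1f9 all 6 Fos-deficient arrays lie below all 6 Fos-floxed arrays, while for Lcn2 the arrays of the groups overlap through specimen 9.

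Slpi encodes the secretory leukocyte protease inhibitor, which blocks neutrophil elastase and cathepsin G at epithelial surfaces. Fos-floxed specimens 2, 3 and 5 had log2 ratios of 3.24, 3.23 and 1.72, and Fos-deficient specimens 6, 8 and 9 had 0.70, -0.70 and 0.21. The Fos-floxed papillomas thus lay well above the reference and the Fos-deficient ones close to it, with no overlap even though specimen 5 was lower than the other Fos-floxed specimens. By single array the Fos-floxed values spanned 1.49 to 3.57 and the Fos-deficient ones -0.99 to 0.90. The difference, Fos-deficient minus Fos-floxed, was -2.66 (SE 0.55, 95% interval -4.03 to -1.29), with an unadjusted p of 0.00342 and an adjusted p of 0.213 in limma. It was the 6th lowest of the 18861 differences. An exact two-sided permutation test over the 20 assignments of specimens gave p = 0.1, the smallest that 3 against 3 allow. The difference was alike in both dye orientations, at -2.55 (SE 0.52) with the papilloma in Cy5 and -2.77 (SE 0.59) in Cy3. With the 12 arrays fitted singly and the specimen as a random block, its adjusted p in limma was 0.0156, the lowest of 17 alternatives, which reached up to 0.639. That fit counts dye-exchanged arrays of an animal partly as replicates, and 397 features passed in it, against 0 with the animal as the replicate.

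Defb4 encodes a beta-defensin, a small cationic peptide that disrupts microbial membranes. Fos-floxed specimens 2, 3 and 5 had 4.17, 5.51 and 3.68, whereas 2.67, 1.13 and 2.20 were found in Fos-deficient specimens 6, 8 and 9. All papillomas lay above the reference, and the groups did not overlap, specimen 8 being lowest as it was for Slpi. The difference was -2.45 (SE 0.61, 95% interval -3.96 to -0.95), the 7th lowest of all features, with an unadjusted p of 0.00764 and an adjusted p of 0.249 in limma. The exact permutation p was 0.1 (two-sided). Its size differed with the dye orientation, at -1.85 (SE 0.62) with the papilloma in Cy5 and -3.05 (SE 0.59) in Cy3. Beta-defensin genes resemble each other, and how well the probes of this array tell them apart is not known here.

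Lcn2 encodes lipocalin 2, which binds bacterial siderophores and so withholds iron. It was the only one of the 9 genes below the reference in all 3 Fos-floxed papillomas, at -1.72, -1.36 and -1.74 in specimens 2, 3 and 5. The Fos-deficient specimens 6 and 8 stood at 0.43 and 1.20, whereas specimen 9 stood at -1.32, just above the highest Fos-floxed value. The difference was 1.71 (SE 0.64, 95% interval 0.12 to 3.30), the 46th highest of all features, with an unadjusted p of 0.0393 and an adjusted p of 0.394 in limma and an exact permutation p of 0.1. Both dye orientations gave a like value, 1.77 (SE 0.63) in Cy5 and 1.65 (SE 0.63) in Cy3. In Cy3 alone the groups overlapped, with specimen 9 at -1.80 and Fos-floxed specimen 3 at -1.74. The size rests on specimens 6 and 8: without specimen 8 the difference was 1.16, and without specimen 9 it was 2.42.

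Among the Fos-deficient papillomas Lcn2 was highest in specimen 8, next in specimen 6 and lowest in specimen 9. Of 145 genes of the further lists with a value in all specimens 20 had that order. 3 specimens can stand in 6 orders, and if these were equally frequent, the count would be no lower than 20. The order alone thus does not set these genes apart. The share over all features was not determined. For 6 of the 20 the Fos-deficient group also lay wholly above the Fos-floxed one, namely S100a3, Defb6, Defb3, S100a1, Msr1 and the T cell kinase gene Zap70. Of the 16209 features with a value in all specimens 10.9% lay wholly above, in any order. The 20 were picked for the order of Lcn2, so the 2 shares are not alike and show no shared pattern. The 3 of the 20 with the largest differences are given here, chosen after their values were seen. S100a3, a protein of the hair cuticle, was at 3.42, 5.87 and 2.03 in Fos-deficient specimens 6, 8 and 9, against 0.59 to 0.72 in the Fos-floxed group. Defb6, a beta-defensin, was at 4.36, 5.34 and 3.05, against 2.33 to 2.95. Cd36, a fatty acid transporter of sebocytes, macrophages and endothelium, was at -1.35, -0.29 and -3.11, against -3.89 to -3.07. The groups overlapped for Cd36. Zap70 was at -1.62, -1.35 and -1.84, against -2.17 to -2.08, although the mean of the 5 complete T cell markers was lowest in specimen 6 of these 3 specimens. The part of the tissue makeup of each papilloma in the Lcn2 difference was not tested.

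**Figure D2:**
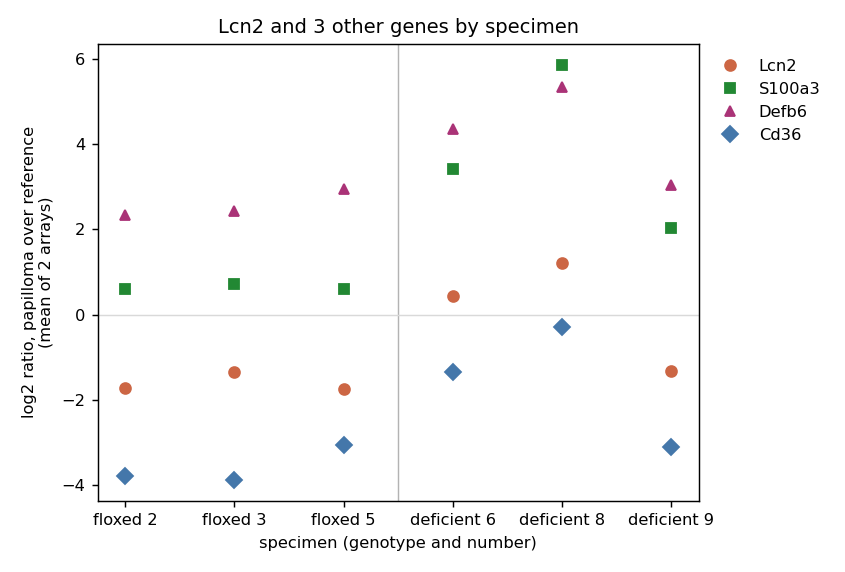
Log2 ratio of papilloma over reference (y axis, mean of 2 arrays) for Lcn2, S100a3, Defb6 and Cd36 in each specimen (x axis), with the Fos-floxed specimens left of the vertical line. All 4 genes are highest in Fos-deficient specimen 8, next in specimen 6 and lowest of the Fos-deficient group in specimen 9, where Lcn2 is at -1.32. S100a3, Defb6 and Cd36 were chosen for this order and for large differences, after their values were seen.

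S100a8 encodes a subunit of calprotectin, a protein that sequesters zinc and manganese and acts as an alarm signal. It was far above the reference in all papillomas, with 4.23, 4.54 and 4.28 for Fos-floxed specimens 2, 3 and 5, then 4.47, 5.04 and 4.96 for Fos-deficient specimens 6, 8 and 9. Specimen 6 lay within the Fos-floxed range, so the groups overlapped. The difference was 0.47 (SE 0.18, 95% interval 0.02 to 0.92), with an unadjusted p of 0.0434 and an adjusted p of 0.407 in limma and an exact permutation p of 0.2. The gene was read differently by the dyes. Arrays with the papilloma in Cy5 exceeded their Cy3 counterparts by 3.03, 1.61 and 2.12 in the 3 Fos-floxed papillomas, compared with 1.38, 0.81 and 1.16 in the 3 Fos-deficient ones. The genotype difference was -0.10 (SE 0.16) in Cy5 alone and 1.04 (SE 0.33) in Cy3 alone, with opposite signs.

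Il1f9 and Il1f6 encode agonists of the IL-36 receptor that keratinocytes make in inflamed skin. Il1f9 was far above the reference in all papillomas, with 6.56, 6.26 and 6.46 for Fos-floxed specimens 2, 3 and 5, then 5.52, 5.02 and 5.66 for Fos-deficient specimens 6, 8 and 9. The Fos-floxed specimens lay close together and all Fos-deficient ones below them. The difference was -1.02 (SE 0.19, 95% interval -1.49 to -0.55), with an unadjusted p of 0.00208, the smallest of the 9 genes, and an adjusted p of 0.212 in limma. It was -0.86 (SE 0.20) in Cy5 alone and -1.19 (SE 0.27) in Cy3 alone, and the exact permutation p was 0.1. Il1f6 was at 5.24, 5.19 and 5.61 in the Fos-floxed specimens and at 5.11, 4.21 and 5.54 in the Fos-deficient ones. Its groups overlapped, and specimen 8 stood apart at the low end. The difference was -0.40 (SE 0.36, 95% interval -1.28 to 0.49), and it was 0.12 (SE 0.43) in Cy5 alone and -0.92 (SE 0.36) in Cy3 alone. Without specimen 8 it was -0.02, and without specimen 9 it was -0.69. The receptor chain gene Il1rl2 had values on 5 Fos-floxed arrays, from 0.61 to 2.17, and on 3 Fos-deficient arrays, from 0.88 to 1.72, too few to be tested.

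Il1a, Il1b and Il1rn showed the smallest differences. Il1a, an alarmin that dying keratinocytes release, was at 0.82, 0.94 and 1.37 in the Fos-floxed specimens and at 0.92, 0.71 and 0.74 in the Fos-deficient ones, which overlapped. The difference was -0.25 (SE 0.16, 95% interval -0.65 to 0.15), and -0.09 without Fos-floxed specimen 5. Il1b, mainly a product of myeloid cells, was at 0.36, 0.37 and 0.34 in the Fos-floxed specimens and at 0.65, 0.34 and 0.24 in the Fos-deficient ones. Its difference was 0.05 (SE 0.12), and its 95% interval, -0.25 to 0.35, was the narrowest of the 9 genes. The Cy5 minus Cy3 value averaged 0.63 in the Fos-floxed and 0.76 in the Fos-deficient group. Both exceeded the mean ratios of the groups, 0.36 and 0.41. With values this near the reference, the narrow interval does not show that Il1b was unchanged. Without specimen 6 the difference was -0.07, and without specimen 9 it was 0.14. Il1rn, which blocks the IL-1 receptor, was at 1.66, 1.80 and 2.14 in the Fos-floxed specimens and at 1.83, 0.79 and 2.04 in the Fos-deficient ones. Only specimen 8 lay below the Fos-floxed range. The difference was -0.31 (SE 0.35, 95% interval -1.19 to 0.56), and it was 0.07 without specimen 8 and -0.56 without specimen 9. In limma these 3 genes had adjusted p between 0.598 and 0.864.

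**Figure D3:**
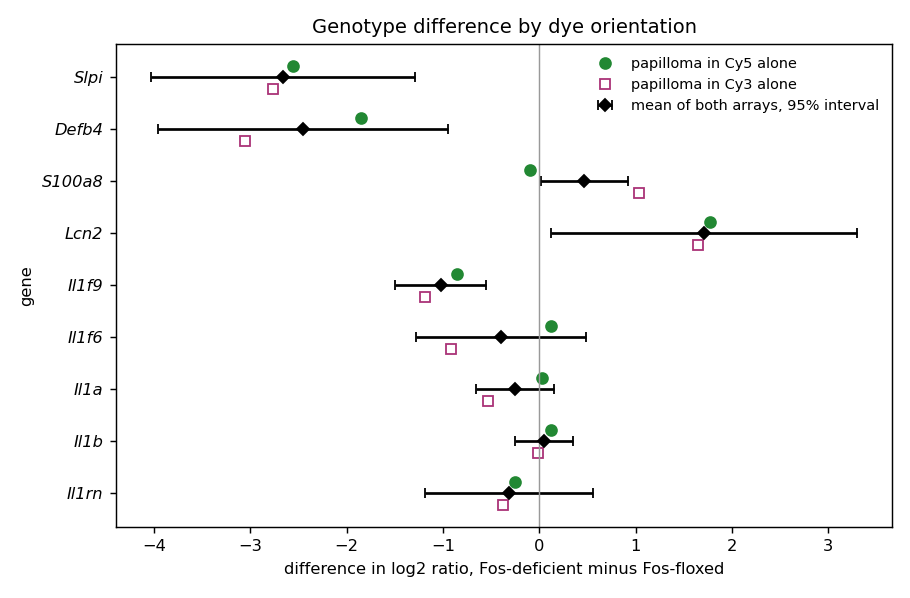
Difference in log2 ratio, Fos-deficient minus Fos-floxed (x axis), for each of the 9 genes (y axis). Diamonds with bars are the means over both arrays with the 95% interval from limma (n = 3 per group), circles the papilloma in Cy5 alone and squares the papilloma in Cy3 alone. Slpi and Lcn2 give like values in both orientations, S100a8, Il1f6, Il1a and Il1b have opposite signs, and Defb4 ranges from -3.05 to -1.85.

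Whether the genotype difference itself depended on the dye orientation was tested on the value of each specimen in Cy5 minus that in Cy3. By limma 0 of 18861 features (0.0%) passed after adjustment, and 9.99% had an unadjusted p under 0.05. Of the 9 genes 3 had an unadjusted p under 0.05. For Defb4 the Cy5 minus Cy3 value was -0.76 in the Fos-floxed and 0.44 in the Fos-deficient group, a difference of 1.20 (SE 0.16, unadjusted p of 1.16e-04, adjusted p of 0.471 in limma). For S100a8 the difference was -1.14 (SE 0.34, adjusted p of 0.482) and for Il1f6 it was 1.04 (SE 0.34, adjusted p of 0.483). Slpi (0.22, SE 0.23), Lcn2 (0.12, SE 0.10) and Il1f9 (0.33, SE 0.27) differed less between the orientations.

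**Figure D4:**
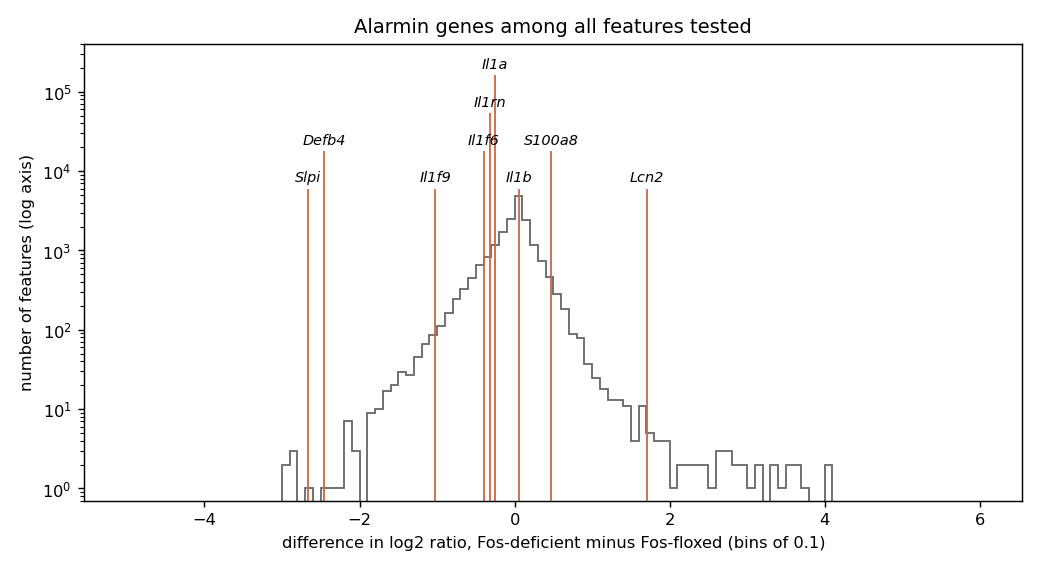
Number of features (y axis, log scale) by difference in log2 ratio, Fos-deficient minus Fos-floxed (x axis, bins of 0.1), over all 18861 features. Vertical lines mark the 9 genes. The middle 95% of features lie between -0.88 and 0.63, with Slpi, Defb4 and Il1f9 below that range and Lcn2 above it.

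The promoters of 5 of the genes are shown because Fos is a subunit of AP-1, whose consensus site is TGAGTCA, which reads TGACTCA when seen from the other strand. They are those of Slpi, Il1f9 and Lcn2, whose groups did not overlap, and of Il1a and Il1rn, which hold the site. Sequences come from RefSeq (build GRCm38.p6), run from 250 bases before to 50 after the start of the gene, 5′ to 3′ on the strand of the gene, and have the site in capitals. The windows are chr2:164356458-164356757, minus strand (Slpi), chr2:24186226-24186525, plus strand (Il1f9), chr2:32387690-32387989, minus strand (Lcn2), chr2:129309923-129310222, minus strand (Il1a) and chr2:24336610-24336909, plus strand (Il1rn, the first of 3 listed starts).
Slpi: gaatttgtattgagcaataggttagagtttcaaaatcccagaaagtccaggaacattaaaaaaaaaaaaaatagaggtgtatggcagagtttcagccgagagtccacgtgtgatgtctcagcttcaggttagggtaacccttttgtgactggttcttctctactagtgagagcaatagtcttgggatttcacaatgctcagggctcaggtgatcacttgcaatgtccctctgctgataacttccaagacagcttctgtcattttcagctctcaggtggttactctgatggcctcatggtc
Il1f9: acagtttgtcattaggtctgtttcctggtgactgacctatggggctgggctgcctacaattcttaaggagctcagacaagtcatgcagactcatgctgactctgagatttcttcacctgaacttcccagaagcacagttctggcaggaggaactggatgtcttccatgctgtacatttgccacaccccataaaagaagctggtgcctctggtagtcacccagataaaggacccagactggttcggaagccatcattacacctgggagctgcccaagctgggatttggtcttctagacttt
Lcn2: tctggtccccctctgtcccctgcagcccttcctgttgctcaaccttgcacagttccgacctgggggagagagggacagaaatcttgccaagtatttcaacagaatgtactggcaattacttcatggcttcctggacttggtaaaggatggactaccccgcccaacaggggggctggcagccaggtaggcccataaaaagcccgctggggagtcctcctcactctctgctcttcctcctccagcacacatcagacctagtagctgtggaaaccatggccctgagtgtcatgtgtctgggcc
Il1a: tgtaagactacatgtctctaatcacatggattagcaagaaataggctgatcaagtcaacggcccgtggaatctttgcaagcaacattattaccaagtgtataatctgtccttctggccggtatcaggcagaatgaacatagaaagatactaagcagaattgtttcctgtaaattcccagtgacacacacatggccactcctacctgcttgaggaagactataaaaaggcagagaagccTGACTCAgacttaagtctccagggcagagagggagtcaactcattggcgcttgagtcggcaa
Il1rn: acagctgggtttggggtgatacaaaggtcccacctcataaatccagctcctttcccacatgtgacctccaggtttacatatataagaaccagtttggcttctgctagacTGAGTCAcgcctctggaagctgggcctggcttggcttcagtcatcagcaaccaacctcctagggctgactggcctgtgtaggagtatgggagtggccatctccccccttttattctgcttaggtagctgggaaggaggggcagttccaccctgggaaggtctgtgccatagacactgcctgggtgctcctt

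Both strands of the 300-base windows were searched for TGAGTCA. Of the 10 genes 8 had a window in the RefSeq table, not Defb4 and Il1f6. The site was present for 2 of these 8 genes, Il1a, where it begins 12 bases before the start, and Il1rn. For Il1rn it begins 141 bases before the first of the listed starts, and the windows of the other listed starts lack it. Of all 27025 genes with a window 5.95% held it. The genes with the larger differences, Slpi, Lcn2 and Il1f9, had no match in these letters in this window, which says nothing of sites elsewhere. All 5 printed promoters lie on mouse chromosome 2, as does that of Il1b.

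Further IL-1 family genes were described through lists of related genes. Of 6 other ligands and antagonists 5 were tested, 3 below and 2 above 0, with a median of -0.0091, and none passed in limma. Il1f8, the agonist IL-36 beta, was at -0.38 (SE 0.14, adjusted p of 0.399), with 5.66 to 6.08 in the Fos-floxed and 5.42 to 5.70 in the Fos-deficient group. In Cy5 alone its difference was 0.06 and in Cy3 alone -0.82. Il1f5, the IL-36 receptor antagonist, was at 0.04 (SE 0.28), Il18 at 0.05 (SE 0.38) and Il33 at -0.21 (SE 0.56, with 2 Fos-deficient specimens). Specimen 9 lacked an Il33 value in Cy3, and its Cy5 value, 0.11, lay below the Fos-floxed Cy5 values (2.51 to 2.79). Il33 was at -0.91 in Cy5 alone and -0.34 in Cy3 alone. The 3 IL-36 agonists thus lay below 0 in the mean of both dyes, although Il1f6 and Il1f8 lay above 0 in Cy5 alone. The antagonist Il1f5 was near 0 in that mean, on 1 of its probes, since the other lacked a Cy5 value in specimen 8. In Cy5 alone Il1f5 was at 0.16. In Cy3 alone, where both probes had values in all specimens, their mean was at -0.55. There the probe behind the value near 0 had 3.95 to 5.53 in the Fos-floxed and 4.51 to 5.14 in the Fos-deficient specimens. The other probe had 1.36 to 2.98 and 1.11 to 1.66. The -0.55 thus rests mainly on the other probe and does not show that Il1f5 moved with the agonists. Of 10 receptor genes 4 were tested, with a median of -0.07. The accessory chain Il1rap was at -0.53 (SE 0.27), the receptor Il1r1 at -0.05 (SE 0.20) and Il18rap at 0.46 (SE 0.18, with 2 Fos-deficient specimens).

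Genes that signal below these receptors or process IL-1 were split, 13 below and 14 above 0 of 27 tested, with a median of 0.03 and none past the threshold in limma. Tollip, an inhibitor of IL-1 receptor signalling, was at -0.72 (SE 0.11, adjusted p of 0.210, with 2 Fos-deficient specimens). Map3k7, the kinase TAK1, was at -0.46 (SE 0.15). Pycard, the inflammasome adaptor, was at 0.49 (SE 0.12, adjusted p of 0.260), with 2.78, 2.99 and 3.09 in the Fos-floxed and 3.30, 3.59 and 3.43 in the Fos-deficient specimens. Casp4, an inflammatory caspase, was at 1.18 (SE 0.49), with overlapping groups.

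Other antimicrobial and acute phase genes held 25 tested genes of 38, 11 below and 14 above 0, with a median of 0.04. An unadjusted p under 0.05 was found for 6 on the lower and 1 on the higher side, and none passed after adjustment. Of all features 7.31% had such a p on the lower and 4.55% on the higher side. Defb1, the constitutive epithelial beta-defensin, was at 5.78, 5.89 and 5.99 in the Fos-floxed and at 4.99, 4.15 and 4.41 in the Fos-deficient specimens. Its difference was -1.37 (SE 0.22, adjusted p of 0.198 in limma). Pglyrp4, a peptidoglycan-binding protein of keratinocytes, was at -0.84 (SE 0.13, adjusted p of 0.212, with 2 Fos-deficient specimens). Defb6 lay on the other side, at 1.68 (SE 0.59, adjusted p of 0.363), as did Defb3 at 0.45 (SE 0.24). Defb14, named after its values were seen, was at -1.60 (SE 0.48), so that the 5 measured beta-defensins of both lists were divided, with Defb1, Defb4 and Defb14 below and Defb3 and Defb6 above 0, also after median centring, after quantile normalization and in each dye alone.

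Genes with the whey acidic protein domain of Slpi were also named after their values were seen. Wfdc2 was at -0.57 (SE 0.15), Wfdc5 at -0.89 (SE 0.40) and Wfdc12 at -1.09 (SE 0.45), each with a higher adjusted p in limma than Slpi, from 0.269 to 0.469. The groups overlapped for Wfdc5 and Wfdc12, and Wfdc12 was at -0.35 in Cy5 alone and -1.83 in Cy3 alone. Wfdc5 was at -0.56 in Cy5 alone and -0.64 in Cy3 alone. Both are smaller in size than -0.89, which the same probes in each setting could not give. Chil1, a chitinase-like protein, was at -1.18 (SE 0.35), named on the same basis.

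The S100 genes apart from S100a8 did not share one direction, with 6 of 12 tested below and 6 above 0 and a median of -0.0074. S100a3 was the highest, at 3.14 (SE 0.95, adjusted p of 0.306 in limma). S100a6, a calcium-binding protein, was at -0.48 (SE 0.21). S100a13 was at 0.47 (SE 0.16) and S100a14 at -0.36 (SE 0.19). Receptors and protease partners of the 9 genes were split as well, 8 below and 7 above 0 of 15 tested. Slc22a17, a receptor for lipocalin 2, was at 0.70 (SE 0.16, adjusted p of 0.230 in limma), with -0.02, 0.17 and 0.02 in the Fos-floxed and 0.48, 0.77 and 1.04 in the Fos-deficient specimens. Bsg, a receptor of S100 proteins, was at -0.99 (SE 0.47) and Cd14, a coreceptor for bacterial lipopolysaccharide, at -0.64 (SE 0.40), both with overlapping groups.

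Genes known as keratinocyte targets or mediators of IL-17, IL-36 and NF-kB numbered 27 tested of 38, 14 below and 13 above 0, with a median of -0.09. An unadjusted p under 0.05 was found for 4 lower and 1 higher, against 7.31% and 4.55% of all features, and none passed in limma. Ptgs2, the inducible cyclooxygenase, was at -2.81 (SE 0.56, adjusted p of 0.212) and Hbegf, an ErbB ligand, at -0.96 (SE 0.31, adjusted p of 0.328), both with no overlap of the groups. Il17rb was at 0.55 (SE 0.21) and Tnf at 0.50 (SE 0.24).

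**Figure D5:**
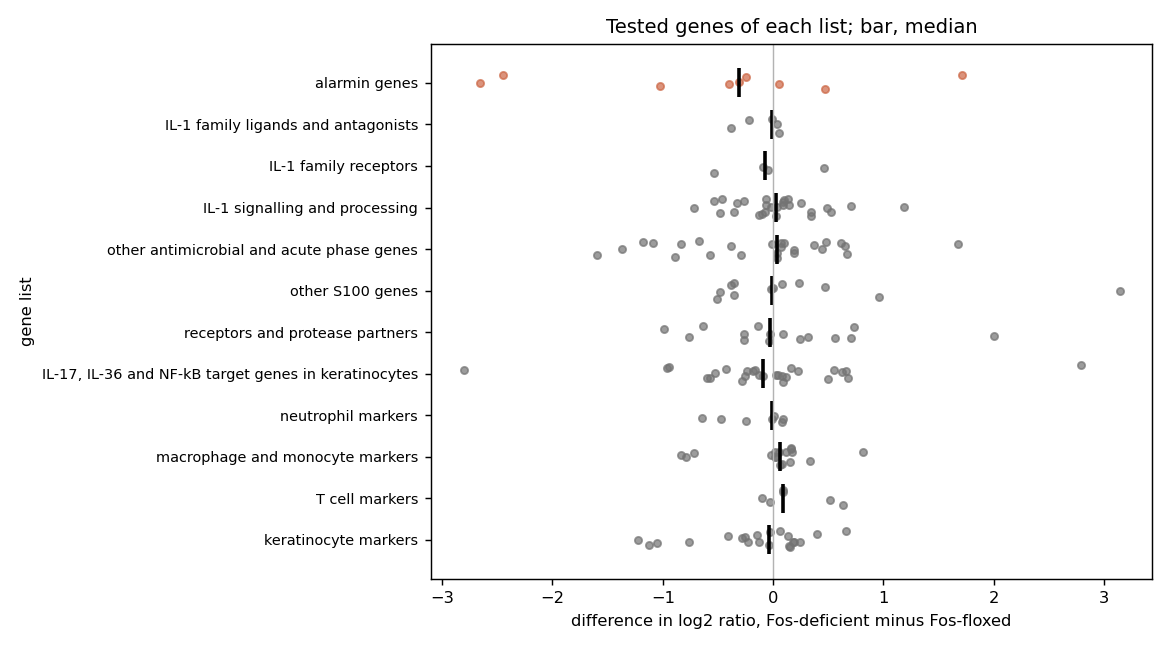
Difference in log2 ratio, Fos-deficient minus Fos-floxed (x axis), of each tested gene (points) of the 9 alarmin genes and of each further list (y axis), with the median of each list as a bar. The median of the alarmin genes is -0.31 and those of the other lists lie between -0.09 and 0.09, with single genes far to both sides.

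Markers of cells that could also make these proteins were described next. Of 20 neutrophil markers 7 were tested, with a median of -0.01 and specimen means over 6 complete genes of 1.95 to 2.19 in the Fos-floxed and 1.87 to 2.08 in the Fos-deficient group. That mean is led by stefin genes, which keratinocytes express too, among them Stfa2l1, with a difference of -0.24 (SE 0.14). The higher-side gene with the smallest p was Clec4d, a lectin receptor, at 0.09 (SE 0.06), with no overlap of the groups. Its values were 0.42 to 0.59 on Cy5 arrays and -0.28 to -0.14 on Cy3 arrays. The dye orientations thus lay further apart than the groups. Of the 7 genes 4 lay below and 3 above 0. Cxcr2, named after its values were seen, was the lowest, at -0.64 (SE 0.37), with overlapping groups. Ly6g was at 0.15 and 0.16 in the group means, a difference of 0.01 (SE 0.10). Csf3r had values on 5 and 4 arrays of the groups and Mpo on 2 and 1, so neither was tested. Of 21 macrophage and monocyte markers 17 were tested, 4 below and 13 above 0, with a median of 0.06 and specimen means of -0.08 to 0.36 and -0.25 to 0.73. Specimen 6 was the highest of these. Cd68 was at -0.83 (SE 0.35), Csf1r at 0.05 (SE 0.27), Adgre1 at 0.16 (SE 0.28) and Fcer1g at 0.81 (SE 0.41). Of 12 T cell markers 6 were tested, with a median of 0.09, Cd3e at -0.10 (SE 0.25) and Zap70 at 0.51 (SE 0.14). The 21 tested keratinocyte markers, 12 below and 9 above 0, had a median of -0.04. They ranged from Dsg3, a desmosomal cadherin, at -1.23 (SE 0.14) to Krt16, a keratin of activated epidermis, at 0.66 (SE 0.10, with 2 Fos-deficient specimens). Specimen 6 lacked a Krt16 value in Cy3, and its Cy5 value, 5.07, lay below the Fos-floxed Cy5 values (5.11 to 5.49). Krt16 was at 0.23 in Cy5 alone and at 0.88 in Cy3 alone. Krt5 and Krt14 differed by 0.15 (SE 0.09) and 0.13 (SE 0.17). The Krt5 value averages 2 probes that differed in opposite directions. In Cy3 one had 4.41 to 4.88 in the Fos-floxed and 4.96 to 5.81 in the Fos-deficient specimens. The other had 1.90 to 2.00 and 1.68 to 1.91. Trp63, named after its values were seen, was at -0.41 (SE 0.14), with no overlap of the groups. No gene of these 4 lists passed in limma, and the part of each cell type in the differences of S100a8, Lcn2 or Slpi was not tested.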

How the data were processed

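The authors deposited 1 log2 ratio per probe and array (taken as base 2), while how ratios were normalized and why some cells are empty is unknown here. Per the labels' protocols, RNA was isolated with TRIzol and amplified with T7 polymerase. No ratio was turned, since the dye-exchanged arrays of a specimen correlated at r of 0.909 to 0.947.

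Symbols came from the platform annotation (20879 probes with 1 symbol, 0 with several, 16753 with none). Of 16964 symbols, 12801 were current in RefSeq (GRCm38.p6) and 4006 were updated through a synonym. No genome build is named, so promoter coordinates are those of RefSeq alone.

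Both arrays of a specimen were averaged, with no value where either was empty. A gene was the mean of its probes measured in all specimens, or else the probe measured in most. Features with values in at least 2 specimens of each group were tested (12006 genes and 6855 unnamed probes) with limma 3.58.1 in R 4.3.3 (lmFit, eBayes, two-sided, Benjamini-Hochberg over all features, threshold 0.05), as Fos-deficient minus Fos-floxed. On simulated data of 18861 features with 200 changed, this recovered 51% of differences of 1 and 92% of differences of 2. These shares hold for the simulated data only. In the measured data Fos itself, at -2.98 (SE 0.29), had an adjusted p of 0.183 in limma. Slpi, at -2.66 (SE 0.55), had 0.213. Differences of this size were thus not called, and the lack of calls does not show a lack of change. Single values also had an exact permutation test over 20 assignments. The members, lists and tests were chosen with earlier results of these data known. By rule the text names Fos, all members, in each further list 2 genes per direction by smallest p (1 for cell type lists) and the markers Csf3r, Ly6g, Mpo, Cd68, Csf1r, Adgre1, Cd3e, Krt5 and Krt14, S100a7a (no probe by this symbol) and Il1rl2. Alternatives covered scaling, missing values, probes, dye orientation, the variance model and each specimen left out. Python 3.11.15, pandas 2.3.3 and matplotlib 3.10.9 made tables and figures.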

Additional observations from a re-analysis of the deposited data

How the results depend on the processing

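Over 17 alternatives each, Slpi, Defb4 and Il1f9 stayed below 0 (-3.16 to -2.28, -3.05 to -1.85 and -1.19 to -0.83) and Lcn2 above 0 (1.16 to 2.42). With the papilloma in Cy3 alone 1 feature passed. With all 12 arrays and the specimen as a random block 397 features passed, 1 of them a member, Slpi (adjusted p of 0.0156 in limma). That fit counts dye-exchanged arrays partly as replicates. The median of the members was -0.098 in Cy5 alone, -0.53 in Cy3 alone, -0.075 with array weights and -0.56 (without specimen 9) to -0.024 (without specimen 8) with 1 specimen left out. Signs turned for Il1a (0.032), Il1f6 (0.12) and S100a8 (-0.098) in Cy5 alone and for Il1b in Cy3 alone (-0.012). With 1 specimen left out Il1b ranged from -0.066 (without specimen 6) to 0.14 and Il1rn from -0.56 to 0.068 (without specimen 8). The causes were not tested. Features with an unadjusted p under 0.05 numbered 2238 and, with array weights, 3991, or 1281 and 1442 without Fos-floxed specimens 2 and 3. For the members this count went from 3 to 6. In the test of dye orientation 0 features passed, and 0 to 840 with 1 specimen left out, 840 without Fos-floxed specimen 3. Its unadjusted count was 1884, 3934 with array weights and 950 to 4056 with 1 specimen left out. No paired analysis was possible because the groups share no specimen numbers. Signal over background is unknown, which limits what low probes can show.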
